A study of Mus musculus with 2 samples.

Results

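Long open stretches are regions of at least 2000 bp in which every base was called accessible to DNase I in both samples of calf muscle (gastrocnemius). Sites called at a false discovery rate under 0.05 were merged into runs within each sample, the runs of both samples were intersected, and the intersections of 2000 bp or more were kept. There were 236 such stretches among 136316 shared runs, or 0.173% of the runs, and they held 555 kb, or 2.19% of the shared open bases. The members were selected on measured openness in both samples, so their length and their openness are a description and are not tested.

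DNase-seq, in which nuclei are treated with DNase I and its cuts are mapped to find accessible DNA, was done on gastrocnemius of adult male mice of the F1 hybrid strain B6CASTF1/J (a cross of the C57BL/6J and CAST/EiJ strains) aged 18 to 20 months. There was 1 group of 2 biological replicates, with no treatment, no other age and no control. The labels name 1 donor for both but separate biosamples, so the spread between them may be technical, and reads of both parental alleles were placed on 1 reference genome. Bulk muscle mixes fibre nuclei with those of other cell types, and fewer open nuclei cannot be told apart from less open chromatin per nucleus. At the start sites of cell type markers, 9 of 10 muscle fibre genes lay in a shared run, and so did 7 of 8 endothelial, 6 of 7 mural, 6 of 8 fibroblast and 5 of 7 Schwann cell genes, 3 of 8 satellite cell and 3 of 8 macrophage genes, 2 of 6 adipocyte genes and 1 of 7 neuron genes. No erythroid gene of 5 and no liver gene of 11 did, and the share over all protein-coding genes was 56.6%. Markers of several resident cell types thus had a start site in a shared run, but runs of any length were counted. Some were very short, such as 35 bp at Adgre1 (macrophage) and 45 bp at Rgs5 (mural). The median run was 456 bp for muscle fibre, 450 bp for fibroblast, 299 bp for endothelial, 288 bp for Schwann cell and 175 bp for mural markers. For satellite cell, macrophage and adipocyte markers it was 0 bp. Read depth is unknown, but the lists differed in size, with 25536924 sites in replicate 1 and 17504604 in replicate 2.

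Most promoters of vertebrate genes that are used in many tissues lie in CpG islands, stretches of DNA that escape CpG methylation and keep their CpG dinucleotides. Transcription factors bound there displace nucleosomes over a short region around the start site, which gives a narrow open window. A footprint is a short stretch inside open chromatin that is cut less than its surroundings, as happens where a protein covers the DNA. Genes that signals switch on quickly often have CpG island promoters that are open before the signal arrives.

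The sequences at the strongest peak show the kinds of DNA that long stretches hold. They were chosen as up to 300 bp centred on the strongest peak of replicate 1, cut back wherever a UTR was annotated. They are read on the forward strand of mm10 from the RefSeq copy of that build, and capitals mark bases inside footprints of both replicates. Tsc22d2, a member of the TSC22 leucine zipper family, shows an upstream window with a cAMP response element. Cpeb2, whose product binds mRNA and controls translation, shows a GC-rich one. Ppp2r3d, which encodes a regulatory subunit of protein phosphatase 2A, has the most footprints per kb of all long stretches.
Tsc22d2, chr3:58414541-58414714: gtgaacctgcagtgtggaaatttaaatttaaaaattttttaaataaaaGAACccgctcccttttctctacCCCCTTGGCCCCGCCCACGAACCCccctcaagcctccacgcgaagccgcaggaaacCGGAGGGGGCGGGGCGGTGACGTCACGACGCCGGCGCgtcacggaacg
Cpeb2, chr5:43232881-43233169: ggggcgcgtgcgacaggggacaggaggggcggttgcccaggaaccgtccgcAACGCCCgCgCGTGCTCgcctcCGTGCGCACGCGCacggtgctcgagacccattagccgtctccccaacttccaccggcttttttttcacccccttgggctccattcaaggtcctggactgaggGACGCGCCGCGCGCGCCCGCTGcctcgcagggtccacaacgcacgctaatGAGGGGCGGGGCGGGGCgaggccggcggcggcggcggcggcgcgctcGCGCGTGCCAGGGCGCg
Ppp2r3d, chr9:124424451-124424750: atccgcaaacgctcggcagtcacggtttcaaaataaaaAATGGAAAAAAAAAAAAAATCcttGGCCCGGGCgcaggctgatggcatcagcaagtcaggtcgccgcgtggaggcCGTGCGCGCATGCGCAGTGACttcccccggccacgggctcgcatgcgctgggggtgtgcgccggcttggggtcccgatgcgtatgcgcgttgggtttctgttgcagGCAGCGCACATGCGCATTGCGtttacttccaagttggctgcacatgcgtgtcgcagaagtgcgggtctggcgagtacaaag
In the Tsc22d2 sequence, 37.4% of the bases were footprinted in both replicates. It held 3 GC boxes (GGGCGG, bound by SP factors) and 1 cAMP response element (TGACGTCA), all touched by shared footprints. The Cpeb2 sequence had a GC content of 74.0% and 45 CpG dinucleotides in 289 bp. The Ppp2r3d sequence held 1 NRF1 site, the element of a factor that drives many nuclear genes for mitochondrial proteins, and a shared footprint touched it.

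Another set came from stretches with no protein-coding start site inside or within 1000 bp. They are the longest of these by length, and they show how much poorer in CpG such DNA can be.
Inside Llgl1, chr11:60707721-60708020: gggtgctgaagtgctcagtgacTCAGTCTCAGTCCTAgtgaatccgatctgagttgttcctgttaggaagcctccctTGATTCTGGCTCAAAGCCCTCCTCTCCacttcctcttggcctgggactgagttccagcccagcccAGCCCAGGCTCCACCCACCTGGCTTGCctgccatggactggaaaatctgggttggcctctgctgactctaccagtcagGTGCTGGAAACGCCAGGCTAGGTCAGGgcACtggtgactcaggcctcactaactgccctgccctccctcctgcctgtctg
Upstream of Klf9, chr19:23134841-23135140: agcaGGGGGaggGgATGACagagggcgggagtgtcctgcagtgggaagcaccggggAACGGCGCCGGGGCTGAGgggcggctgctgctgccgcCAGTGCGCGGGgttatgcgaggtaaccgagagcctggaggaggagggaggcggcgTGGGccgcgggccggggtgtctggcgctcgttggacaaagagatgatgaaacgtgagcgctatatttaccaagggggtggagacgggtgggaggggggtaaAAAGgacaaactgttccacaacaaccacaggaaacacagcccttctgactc
Nearest to Irf2bp2, chr8:126666401-126666700: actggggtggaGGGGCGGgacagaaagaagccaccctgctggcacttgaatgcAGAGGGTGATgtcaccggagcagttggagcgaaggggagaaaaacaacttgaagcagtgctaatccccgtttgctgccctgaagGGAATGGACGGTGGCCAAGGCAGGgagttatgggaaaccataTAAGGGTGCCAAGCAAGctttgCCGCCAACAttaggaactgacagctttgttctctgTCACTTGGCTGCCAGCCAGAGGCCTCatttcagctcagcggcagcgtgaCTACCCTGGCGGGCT
The sequence inside Llgl1, a gene for a cell polarity protein, held 2 CpG dinucleotides and 2 AP-1 sites (TGACTCA or TGAGTCA), 1 of them touched by a shared footprint. The sequence nearest to Irf2bp2, which encodes a transcriptional corepressor, held 9 CpG dinucleotides and 1 TEAD site (CATTCC), which a shared footprint touched. The sequence upstream of Klf9, a KLF transcription factor gene that glucocorticoids induce, held 21 CpG dinucleotides and 1 KLF-type C-rich site (CCCTCCCC), also touched. It also held 3 CACCC boxes and 2 GC boxes, none of them touched by a shared footprint. A match is a description of these letters and does not show which protein was bound.

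The longest stretch covered 4261 bp on chromosome 17 (34118750 to 34123010, mm10) and held start sites of Brd2, which encodes a bromodomain protein that reads acetylated histones, and of H2-DMa, an antigen-loading gene of the major histocompatibility complex. The run there measured 4270 bp in replicate 1 and 4401 bp in replicate 2, with 45 and 47 footprints. UTR exons made up 81.8% of its bases, and coding sequence 0%. Footprints were spread over the whole Brd2 stretch in both replicates and were not limited to the start site.

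Jun, which encodes a subunit of the AP-1 transcription factor, had the next longest stretch, 4179 bp on chromosome 4 (95049920 to 95054098). The signal of its strongest peak was 13.6 and 13.4 in replicates 1 and 2, in the authors' unit, whose scale is not stated, so signals are compared within a replicate. Myc, a growth-driving transcription factor gene, followed with 4143 bp on chromosome 15 (61984215 to 61988357). Its strongest peak reached 2.21 and 2.35 in replicates 1 and 2, so a stretch almost as long as that of Jun had a much lower peak. Both are immediate early genes, which cells transcribe within minutes of a signal. The Jun stretch held 27 footprints in replicate 1 and 24 in replicate 2, and the Myc stretch held 23 in each.

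Of the 15 longest stretches, 13 held a protein-coding start site. Pcdh7, a gene for a cell adhesion protein, had 3693 bp on chromosome 5 with a strongest peak of 0.741 in replicate 1 and 1.12 in replicate 2, the lowest of the 15 in each. Bhlhe40 encodes a repressor in the circadian clock, and its stretch measured 3243 bp (chromosome 6, 108658611 to 108661853) with 36 footprints in replicate 1 and 28 in replicate 2. Gadd45g, a stress gene that slows the cell cycle, had 3213 bp on chromosome 13 with 27 and 13 footprints. The 2 counts at Gadd45g lay further apart than those at Jun or Bhlhe40, and the lists of all footprints also differed in size, with 339656 in replicate 1 and 234091 in replicate 2. Nr3c1, the glucocorticoid receptor gene, had 3215 bp, and Nrp1, a receptor for semaphorins and vascular growth factor, had 3238 bp. Nsd1, which encodes a histone H3 lysine methyltransferase, had 3153 bp and Tnrc18 had 3174 bp.

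**Figure D1:**
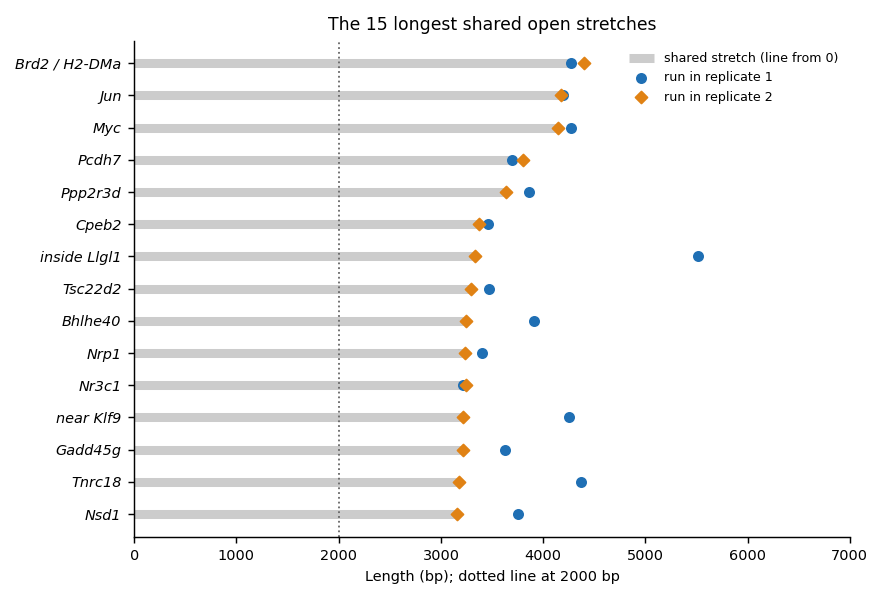
Length in bp of the 15 longest shared stretches (grey lines from 0), with the length of the run in replicate 1 (circles) and replicate 2 (diamonds) that holds each; the dotted line marks 2000 bp. The run was longer in replicate 1 for 12 of the 15, with 5511 bp against a shared 3337 bp inside Llgl1.

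Where both replicates were long, the shorter run was usually that of replicate 2, which had fewer sites. The shared stretch was the whole run of replicate 2 in 158 of 236 cases and the whole run of replicate 1 in 13. The stretch kept a median of 94.4% of the run in replicate 1 and 100% of the run in replicate 2. By the rates that chose the members, a median of 95.7% of a stretch's bases had a rate under 0.001 in replicate 1 and 90.8% in replicate 2. No stretch was under 0.001 throughout in both, and 42 stretches of 2000 bp or more were left when sites were limited to that rate. At the length threshold itself, Mpc1, a mitochondrial pyruvate carrier gene, was inside with 2006 bp, Ube2d3 with 2005 bp and Pim1 with 2001 bp. Fosl2, another AP-1 gene, was outside by 1 bp, Sertad2 with 1998 bp and Maf with 1996 bp. The stretches had a median length of 2226 bp, and 62 of 236 were under 2100 bp, so many members sit close to the threshold.

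The structure inside a stretch was several peaks on a continuous open floor. A stretch held a median of 4 peaks in each replicate, with a range of 1 to 9. Peaks covered a median of 51.9% of the bases in replicate 1 and 50.7% in replicate 2. Peaks and footprints come from the same reads as the sites that selected the stretches, so that a peak lay in every one of the 236 stretches in both replicates is no independent result. The strongest peak was typically among the tallest of its sample, at a median percentile of 97.2 of all peak signals in replicate 1 and 96.1 in replicate 2. It is the highest of several peaks in most stretches, and the lowest percentile was 55.9 in replicate 1 and 46.8 in replicate 2.

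**Figure D2:**
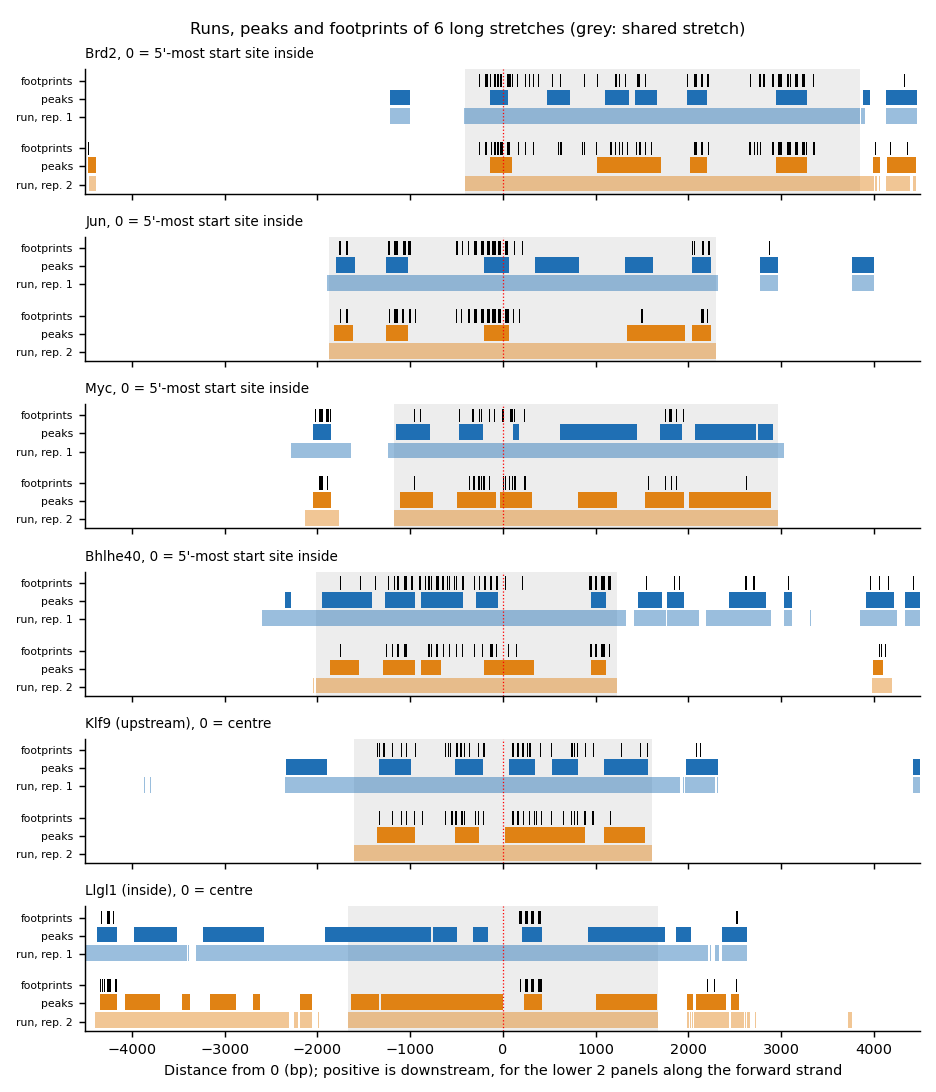
Runs, peaks and footprints of 6 long stretches in replicate 1 (blue) and replicate 2 (orange), against the distance in bp from the 5′-most start site inside or, in the lower 2 panels, from the centre; grey marks the shared stretch. At Jun the footprints gather upstream of the start site and near the downstream edge, and inside Llgl1 a stretch of 3337 bp holds 4 footprints in replicate 1 and 5 in replicate 2.

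Footprint numbers ranged from 4 to 57 per stretch in replicate 1 and from 5 to 57 in replicate 2. Ppp2r3d was highest with 57 in each, or 15.7 per kb (chromosome 9, 124422466 to 124426103). The next in density was the stretch upstream of Klf9 with 11.7 per kb, the mean of both replicates, then the stretch shared by B3galt6 and Sdf4, also 11.7 per kb. Atxn2l followed with 11.5 per kb, and the stretch shared by Ddx5, an RNA helicase gene, and Cep95 also had 11.5 per kb. The lowest was the stretch inside Llgl1 with 1.35 per kb, then Sinhcaf, a gene of the SIN3 histone deacetylase complex, with 2.43 per kb; these low ones were picked after their values were seen. Long open DNA was thus unevenly footprinted, and the highest and the lowest stretch were the same in both replicates. Of the footprints in long stretches, 63.8% in replicate 1 (95% exact binomial interval 62.3 to 65.3) overlapped a footprint of replicate 2. In the other direction the share was 70.9% (69.4 to 72.3). In shared runs of 500 to under 1000 bp these shares were 62.1% and 69.5%, so they were close to those of the long stretches.

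The stretches were set beside shorter shared runs, by length. A protein-coding start site lay inside 213 of 236 long stretches, or 90.3% (95% exact interval 85.7 to 93.7). It lay inside 87.5% of runs of 1000 to under 2000 bp (86.4 to 88.6), 60.5% of runs of 500 to under 1000 bp and 2.80% of runs under 500 bp. A longer run has more room to hold a start site, and the intervals of the long stretches and the 1000 to under 2000 bp runs overlap. With runs that hold a start site set side by side, the median signal of the strongest peak was 5.60 in long stretches, 5.13 in runs of 1000 to under 2000 bp and 3.70 in runs of 500 to under 1000 bp in replicate 1. In replicate 2 it was 5.93, 5.4 and 3.87. A longer run also has more peaks to take the highest from: long stretches with a start site had a median of 4 peaks, and those of 500 to under 1000 bp had 1. Over all runs, footprints per kb of open DNA were fewer in long stretches, with 7.5 in replicate 1 and 6.8 in replicate 2, than in runs of 500 to under 1000 bp, with 9.0 and 8.13.

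**Figure D3:**
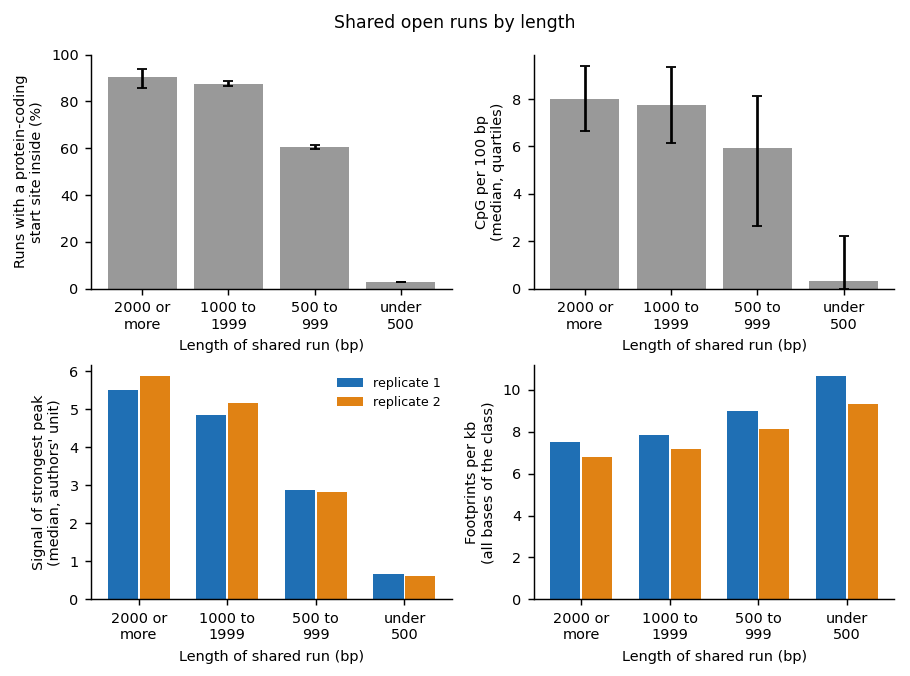
Shared runs by length: share with a protein-coding start site inside (bars with 95% exact binomial intervals), CpG per 100 bp (median with quartiles), and, per replicate, the median signal of the strongest peak and the footprints per kb. Start sites, CpG and peak signal are highest in runs of 2000 bp or more. Footprints per kb, pooled over all bases of a class, are lowest there, 7.5 in replicate 1 and 6.8 in replicate 2. The median per run is 0 in runs under 500 bp, against 7.36 and 6.70 in long stretches.

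The DNA of the stretches was mostly that of CpG islands. Sequence content was not used to select them. They held a median of 8.0 CpG per 100 bp (quartiles 6.66 and 9.40), against 7.73 in runs of 1000 to under 2000 bp, 5.95 in runs of 500 to under 1000 bp and 0.345 in shorter runs. Their GC content had a median of 64.1%, against 63.3% in runs of 1000 to under 2000 bp. CpG islands covered at least 80% of the bases of 192 stretches, and 4 stretches held no island base. An island was counted where windows of 200 bp reached a GC content of 50% and an observed to expected CpG ratio of 0.6. Islands are themselves long here: the longest island touching a stretch had a median of 2076 bp, against 1233 bp for runs of 1000 to under 2000 bp and 718 bp for runs of 500 to under 1000 bp. In 70 of 236 stretches the longest island was at least as long as the stretch. CpG density was thus nearly the same in the 2 longest length groups, and so was the median share of bases in islands, 92.9% and 93.2%. The longest island differed more between them, but a longer run can touch more islands.

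Genes with a long island more often had a long stretch than the whole gene set, but most did not have one. Of 585 protein-coding genes with an island of 2000 bp or more at the 5′-most start site, 124 (21.2%) had a long stretch, against 1.12% of all 21826 genes, and 121 (20.7%) had no shared run at any start site. An island of any length lay at the 5′-most start site of 91.4% of genes with a long stretch, 91.6% of genes whose longest run was 1000 to under 2000 bp and 22.9% of genes with no shared run. Conversely, of the 245 genes with a long stretch, 124 (50.6%) had such an island, against 177 (5.11%) of the 3463 genes whose longest run was 1000 to under 2000 bp and 121 (1.28%) of the 9471 genes with no shared run. Across the 236 stretches, Spearman's rho between the stretch length and the longest island was 0.28, given as a description over regions. All points come from the same 2 samples, and the range of lengths was limited by the selection.

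How far openness reached on each side depended on the start site taken. In the 180 stretches with start sites of 1 gene, measured from the 5′-most start site inside, the median reach was 1434 bp downstream and 878 bp upstream. The downstream side was longer in 125 of 180, or 69.4%, and the median difference was 540 bp (quartiles -222 and 1180). From the 3′-most start site inside the stretch, the median difference was -279 bp and the downstream side was longer in 73 of 180, so the direction turns round. The 5′-most site leaves more of the stretch downstream by construction. With the 5′-most start site, 1150 bp downstream was open at 81.7% of these promoters in replicate 1 and 77.2% in replicate 2, and 1150 bp upstream at 43.9% and 37.8%. Promoters whose shared run was 500 to under 1000 bp were open 1150 bp downstream in 10.1% and 7.41%, as their length requires. Of all bases in long stretches, 36.6% were intronic, 19.2% lay in UTR exons, 9.95% in coding sequence and 34.2% outside protein-coding genes.

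The footprints of long stretches had 2 parts, a dense core at the start site and a thin cover over the flanks. At 50 bp upstream of the start site, 32.2% of long stretches had a footprint in replicate 1 and 28.3% in replicate 2, against 34% and 32.9% of promoters with a run of 500 to under 1000 bp. At 350 bp upstream the shares were 17.8% and 13.9% in long stretches, against 1.91% and 1.68% in the shorter runs, of which 56.8% and 43.0% were open there. At 350 bp downstream the contrast was smaller, with 5.56% and 5.0% in long stretches against 2.37% and 2.18% in the shorter runs. Of the shorter runs, 79.8% and 72.6% were open there. At 1150 bp downstream, 5.0% and 4.44% of long stretches had a footprint, against 0.908% and 0.643% of the shorter runs, few of which were open there. The strongest peak lay within 250 bp of the 5′-most start site in 86 of 180 stretches in replicate 1 and in 87 in replicate 2. In 55 and 54 it lay further upstream and in 39 further downstream in each, so the tallest peak was often not at the start site.

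**Figure D4:**
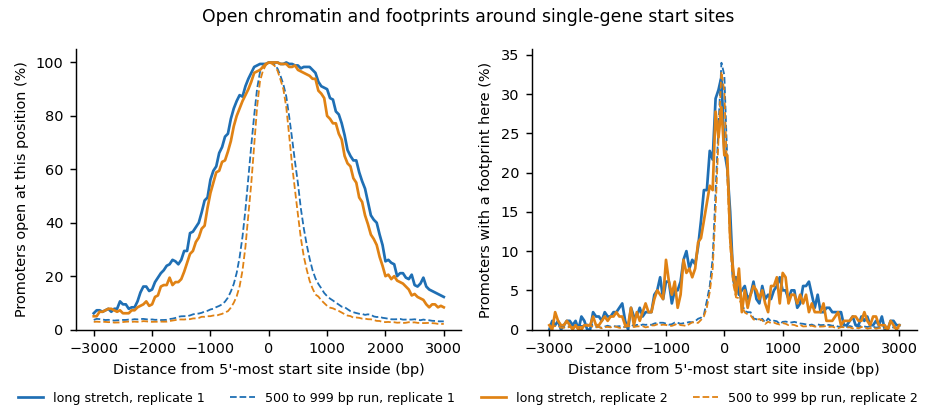
Share of promoters open (left) and with a footprint (right) at each distance in bp from the 5′-most start site inside, for 180 long stretches with start sites of 1 gene (solid) and 5284 runs of 500 to under 1000 bp with a start site of 1 gene (dashed), in replicate 1 (blue) and replicate 2 (orange). Both groups share a footprint summit at the start site, and long stretches keep footprints on both flanks.

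Some stretches served more than 1 gene. Start sites of 2 genes lay in 33 stretches. In 30 of these the genes were on opposite strands, but whether the start sites point away from each other was not checked. The 2575 bp stretch of Hnrnpa2b1, an RNA-binding protein gene, and Cbx3, a gene for a heterochromatin protein, is of this kind and had strongest peaks of 10.3 and 11.6 in replicates 1 and 2. Another held the linker histone gene Hist1h1e and the core histone gene Hist1h2be over 2172 bp, with 17 footprints in replicate 1 and 11 in replicate 2. A start site of a noncoding gene lay in 25% of long stretches, against 17.5% of runs of 1000 to under 2000 bp and 9.43% of runs of 500 to under 1000 bp. Here too a longer run has more room to hold a start site, and the shares are not corrected for length. The imprinted gene Peg3 had its nearest start site within 1000 bp of a stretch of 2698 bp with 37 footprints in replicate 1 and 23 in replicate 2, and alleles were not separated. Sin3a, the scaffold of a histone deacetylase complex, had 2 stretches of 3120 and 2458 bp, 465 bp apart on chromosome 9.

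Genes with a long stretch were few. Of 21826 protein-coding genes, 245 had a start site inside one, or 1.12%, and of the 12355 genes with any shared run at a start site the share was 1.98%. A shared run of 1000 bp or more held a start site of 17% of all genes. The lists below were chosen with earlier results of these data known and get no test, and each count stands beside these shares. Promoters in CpG islands differ in number between lists, and their part in the counts was not tested.

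Immediate early and AP-1 genes, which respond to signals within minutes, had the most members with a long stretch, 6 of 21. Their median run was 1267 bp, against 369 bp over all genes and 786 bp over genes with a shared run. That median was not particular to them: it was 1291 bp for cell cycle brakes and p53 targets and 1271 bp for KLF and SP factors. Core clock genes had 1144 bp and housekeeping genes 1131 bp, and the remaining gene lists were lower. Beside Jun and Myc they were Zfp36, Atf3, Dusp1 and Egr1. Zfp36, whose product promotes the decay of inflammatory mRNAs, had 2505 bp with a strongest peak of 5.60 in replicate 1 and 6.07 in replicate 2. Atf3, a stress-induced transcription factor gene, had 2102 bp with 8.37 and 8.82. Dusp1, a phosphatase gene that turns off MAP kinases, had 2057 bp and Egr1 had 2017 bp. Fosl2 was just outside, and Egr3 was the 1 member with no shared run at a start site.

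The cell cycle brakes and p53 targets had 3 of 13 members: Gadd45g with 3213 bp, Cdkn1a, the p21 inhibitor of cyclin-dependent kinases, with 2384 bp and Btg1 with 2282 bp. Cdkn2a, the p16 locus, had no shared run at any start site in this muscle of old mice. KLF and SP factors, which bind GC-rich and CACCC elements, had 4 of 26: Klf13 with 2932 bp, Sp3 with 2566 bp, Klf12 with 2365 bp and Sp4 with 2031 bp. Klf1, the erythroid member, and Sp7, the osteoblast member, were among 6 with no shared run at a start site. Glucocorticoid genes had 2 of 16, the receptor gene Nr3c1 and its target Fkbp5, a chaperone of the receptor, with 2135 bp.

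The clock lists had 1 member each. Of 15 core clock genes, Bhlhe40 had a long stretch, and 10 had a run of 1000 bp or more, with Clock at 1784 bp and Nr1d2 at 1635 bp. Of 7 output factors, Nfil3, a repressor of D-box genes, had 2213 bp. Foxo3, the forkhead factor that drives atrophy genes, had 2544 bp as 1 of 18 atrophy genes. Ppargc1b, a coactivator of mitochondrial genes, had 2561 bp as 1 of 20 mitochondrial and oxidative genes. Ywhaz, which encodes a 14-3-3 protein, had 2386 bp as 1 of 15 housekeeping genes, and Hsp90ab1, a constitutive chaperone gene, 2089 bp as 1 of 17 heat shock genes. Rpl7, which shares its 2024 bp stretch with Rdh10, was 1 of 18 ribosomal protein genes.

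Genes that make the muscle fibre had none. None of 16 fast fibre genes, 13 slow fibre genes, 16 shared sarcomere genes, 20 myogenic regulators or 19 glycolysis genes had a long stretch. The longest run per list, at any start site, was 1164 bp at Mylpf (fast myosin light chain) and 1361 bp at Tpm3 (tropomyosin). It was 1598 bp at Jph1 (junctophilin), 1713 bp at Mef2a and 1819 bp at Ldha (lactate dehydrogenase). Acta1, the skeletal actin gene, had a shared run of 539 bp, taken from runs of 1771 bp in replicate 1 and 539 bp in replicate 2, and Ckm, the muscle creatine kinase gene, had 591 bp. The fast myosin gene Myh4 had no shared run at a start site, and Myh2 had none either. Against a background of 1.12%, a zero in lists of this size says little. None of 20 hindlimb and Hox genes, 10 germ cell genes and 11 liver genes had a long stretch, and the same held for all 10 cell type marker lists.

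**Figure D5:**
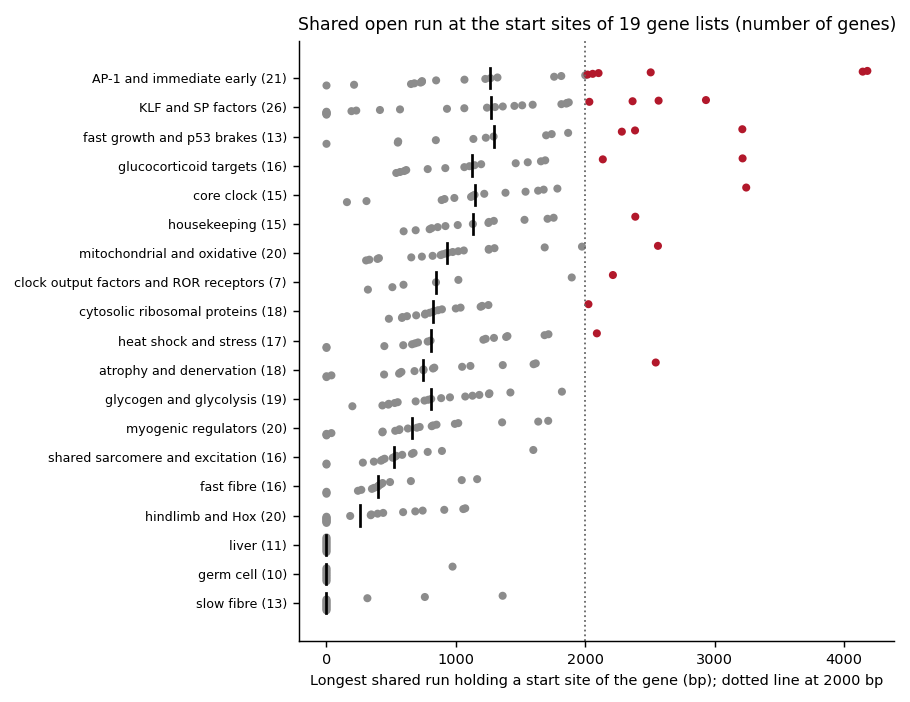
Longest shared run holding a start site of each gene, in bp, for 19 gene lists with the number of genes in brackets; each point is a gene, red points reach 2000 bp, and black ticks are list medians. Immediate early genes hold 6 red points, and the lists of fibre genes stay below 2000 bp.

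Gene families picked after their values were seen give a view of who else was there. Lysine methyltransferases of the Kmt, Nsd and Setd groups had 5 of 19 members, namely Nsd1, Kmt2c, Kmt2e, Kmt5b and Setd5, and 15 of the 19 had a run of 1000 bp or more. Lysine demethylases had 3 of 18, with Kdm6a, an X-linked remover of H3K27 methylation, at 2102 bp. The hnRNP genes, whose products package nascent RNA, had 4 of 20, and 18 of 20 had a run of 1000 bp or more. DEAD-box helicase genes had 3 of 37. Some small families had larger shares on few members. Tribbles pseudokinases had 2 of 3, and the Zfp36 family of mRNA decay genes had 2 of 4. The Mex3 RNA-binding family and the Tsc22 domain family also had 2 of 4 each. The BTG and TOB family had 2 of 6, Anp32 and Rap2 genes 1 of 3 each, Rfx factors 2 of 8 and Frizzled receptors 2 of 10. Zbtb factors, a family of 40, had 3, and of 1133 olfactory receptor genes none had one. These families were chosen because members stood in the list of stretches, so their shares are not evidence of a preference.

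Away from protein-coding start sites there were 15 long stretches, all but 1 outside protein-coding genes. That 1 lay inside Llgl1, 6046 bp from its start site (chromosome 11, 60705891 to 60709227), with a run of 5511 bp in replicate 1 and 3337 bp in replicate 2. It had 1.71 CpG per 100 bp, no CpG island and strongest peaks of 5.80 and 5.74, with 4 and 5 footprints. The stretch upstream of Klf9 ended 4266 bp from its start site (chromosome 19, 23133747 to 23136960) and held a start site of the noncoding gene 2410080I02Rik. It had 37 footprints in replicate 1 and 38 in replicate 2, and an island over 77.1% of its bases. These are the 2 longest away from start sites, nearly equal in length and far apart in footprints.

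The other 13 distal stretches lay between 2502 and 183137 bp from the nearest protein-coding start site. One of 2697 bp was 72283 bp from Irf2bp2 (chromosome 8, 126666269 to 126668965), with no island and 25 footprints in replicate 1 and 21 in replicate 2. A pair on chromosome 11, 2124 and 2400 bp long and 1189 bp apart, lay between Nr1d1, the clock repressor gene REV-ERB alpha, and Msl1, a histone acetyltransferase complex gene. The first was 6544 bp from the Nr1d1 start site (98781877 to 98784000), and the second 7927 bp from the Msl1 start site (98785190 to 98787589). The second had the strongest peak of the distal stretches, 10.97 in replicate 1 and 11.9 in replicate 2, with 1.96 CpG per 100 bp and no island. Msl1 itself had a promoter stretch of 2405 bp, 6940 bp further on. A distal stretch of 2638 bp held a start site of the noncoding gene E130102H24Rik, and 1 of 2253 bp held that of Zswim6, which the annotation used here does not class as protein-coding. The stretches nearest to Bcor and Foxn2 were 72947 and 183137 bp away from those genes' start sites.

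As a group, the 15 distal stretches had a median of 4.73 CpG per 100 bp (range 1.71 to 10.9), against 8.07 in the 213 with a start site inside. The highest value was that of the Zswim6 stretch. Of the 15, 5 held a start site of a gene not classed as protein-coding, as did 54 of the 213. Another distal stretch lay 998 bp from the long stretch of Tnrc18. The part of such promoters in this comparison was not tested. The strongest peaks of the 15 had a median of 5.80 in replicate 1 and 6.18 in replicate 2, against 5.60 and 5.93 in those 213. Peak height thus differed little between the groups while CpG density did, and 11 of 15 still touched an island. The 347 shared runs of 1000 to under 2000 bp away from start sites were near to them in CpG, with a median of 4.05 per 100 bp, and 77.5% touched an island, against 73.3% of the distal stretches. Their median strongest peaks were 3.31 in replicate 1 and 3.32 in replicate 2. Shared runs of 500 to under 1000 bp away from start sites, 3203 in number, had median strongest peaks of 2.11 and 1.88 and a median of 2.09 CpG per 100 bp.

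Motif content was compared per length and in equal windows. For 16 motifs, matches on both strands were counted, and the windows were 300 bp around the strongest peak of replicate 1. The KLF-type C-rich site CCCTCCCC was in 29.7% of the windows of long stretches (70 of 236), against 17.7% in runs of 1000 to under 2000 bp, 11.1% in runs of 500 to under 1000 bp and 7.42% in shorter runs. Over whole stretches it had 9.82 matches per 10 kb, against 5.85, 4.08 and 2.69, and inside footprints 2.67 per 10 kb, against 1.34, 0.947 and 0.608. Its density was higher at each step of length. The median GC content of whole runs was 64.1% in long stretches and 63.3% in runs of 1000 to under 2000 bp, and the median repeat-masked share was 8.38% and 5.39%; the part of base composition and of repeats in this difference was not tested. The GC box GGGCGG was in 77.5% of the windows of long stretches and in 76.5% of those of 1000 to under 2000 bp, nearly the same share.

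Several other motifs had fewer matches per 10 kb in long stretches. The MyoD-type E-box CAGCTG had 5.48 matches per 10 kb in long stretches, against 6.07, 8.08 and 12.1 in runs of 1000 to under 2000 bp, 500 to under 1000 bp and under 500 bp. The AP-1 site had 0.955 per 10 kb, against 1.14, 1.79 and 3.59. In the windows it was found in 3.81% of long stretches, against 3.13%, 6.11% and 9.33% in the same groups. Inside footprints it had 0.0541 per 10 kb, against 0.0269, 0.163 and 0.430. Both measures thus ran the other way only against runs of 1000 to under 2000 bp, on few matches. The nuclear receptor core element AGGTCA had 3.78, against 4.46, 5.99 and 7.86. The ETS site CCGGAAG, common in promoters, had 2.14 per 10 kb in long stretches. It had 3.45 and 4.19 in runs of 1000 to under 2000 bp and 500 to under 1000 bp. In runs under 500 bp it had 1.09, fewer than in long stretches. For the CCAAT box the measures disagreed. It had 11.3 per 10 kb in long stretches, against 11.99 and 13.1 in runs of 1000 to under 2000 bp and 500 to under 1000 bp. It was in 42.4% of windows, against 40.02% and 36.01%. Of the 16 motifs, 5 had more matches per 10 kb inside footprints of long stretches than of runs of 500 to under 1000 bp, counted with no tolerance. For the CACCC box this was 5.155 against 5.150, and the MEF2 element, the site of a muscle transcription factor, and the PAR bZIP site were at 0.0180 in long stretches, against 0.0177 and 0.0118, on 1 match each. None of these differences between regions was tested.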

How the data were processed

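DNase-seq of gastrocnemius was given for 1 group of 2 biological replicates. Each sample has its own peak, site and footprint lists on mm10, per the deposited descriptions; the caller, aligner and versions are not given in the sources used here. The p-value column of the deposited site lists is a false discovery rate under 0.05, and in the deposited footprint lists it is a constant 0.01. The deposited peak lists give a signal whose scale the authors do not state, so depth is unknown. The larger peak list was used; a peak was counted where it overlapped by 1 bp, a footprint where it lay wholly inside.

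Sites were merged into runs on 21 chromosomes with Python 3 and pandas, and the runs of both replicates were intersected; the code was tested on simulated runs. Genes are protein-coding records of GENCODE M21, 1 per symbol, with every protein-coding start site. Bases, CpG and islands were read from the RefSeq copy of GRCm38. Shares carry 95% Clopper-Pearson intervals, which reflect counting error alone. No test between groups was possible with 1 group.

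Regions named were the 15 longest, the 8 longest away from start sites, the 5 longest outside genes, the 5 with most footprints per kb and 3 on each side of 2000 bp. Per gene list, up to 3 members with the longest stretch and 2 with no shared run were named; others were chosen after their values were seen. The members and the lists were chosen with earlier results of these data known. Some items that this rule names are not reported here.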

Additional observations from a re-analysis of the deposited data

How the results depend on the processing

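The number of long stretches, 236 as reported, was 901 with a minimum of 1500 bp, 20 with 3000 bp, 115 with sites under a rate of 0.01, 42 under 0.001 and 455 with gaps of up to 150 bp joined; leaving out 1 replicate gave 391 to 592. The genes with a stretch at a start site, 245 as reported, were 942, 19, 117, 43 and 445 under the same settings, and 346 to 584 with 1 replicate. The share with a start site inside was 81.4% with the 5′-most start site of each gene, and 77.7% to 86.5% with 1 replicate, the lower value from replicate 2 alone. The share with a peak in both replicates was 91.8% to 99.2% with 1 replicate. Footprints per kb, 7.03 as the mean of both medians, were 6.41 with 3000 bp, 7.70 under 0.01, 8.0 under 0.001 and 5.65 to 6.29 with 1 replicate. CpG per 100 bp, 8.0 as reported, was 6.51 with 3000 bp, 8.27 under 0.001, 7.63 with gaps of 50 bp and 7.38 with gaps of 150 bp joined, and 6.74 to 7.08 with 1 replicate. The median strongest peak of replicate 1 was 5.81 with 3000 bp. The extension past the start site turned to -279 bp with the 3′-most start site inside. These settings change which sites, regions or samples enter; other causes were not tested. The share with a start site stayed between 87.3% and 90.6% under the length, rate and gap settings, and a peak of both replicates lay in 100% of stretches under each of them. Read depth is unknown; replicate 2, with fewer sites, set most edges, and the part of depth in this was not tested. No paired analysis was possible because there is only 1 group of samples.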

Other observations

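Runs of 2000 bp or more were more numerous in each replicate than in both, 592 in replicate 1 and 391 in replicate 2. Those that the other replicate broke up or shortened differed in annotation between replicates. Of the 155 such runs of replicate 2, 58.1% held a protein-coding start site and islands covered a median of 35.8% of the bases. Of the 356 such runs of replicate 1, 83.1% held a start site and islands covered 76.0%. Under 50% of the run was open in the other sample for 35 runs of replicate 1 and 85 runs of replicate 2, and 31 of those 85 had no shared base at all. What sets these runs apart was not tested.

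The longest of these in replicate 1 covered 12744 bp on chromosome 19 (5838410 to 5851153, mm10) and held start sites of Neat1, a noncoding RNA that scaffolds the nuclear bodies called paraspeckles. In replicate 2 the same DNA was open over 68.1% of its bases in 18 runs, the longest shared piece measured 1634 bp, and the run held 56 footprints of replicate 1 and 68 of replicate 2. The next in replicate 1 was 6873 bp at Flnc, which encodes the muscle filamin, with 44.3% open in replicate 2 in 26 runs. In replicate 2 the longest run covered 8015 bp at Atf5, Il4i1 and Nup62 on chromosome 7, of which 23.7% was open in replicate 1. Cyp26b1, whose product breaks down retinoic acid, lay in a run of 7083 bp in replicate 2 that was open over 11.2% in replicate 1. These runs are absent from the 236 stretches because the other replicate did not hold 2000 bp without a break.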
